A study of Mus musculus with 24 samples.

Results

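Astrocyte genes were followed as 10 named transcripts: Gfap, S100b, Aldh1l1, Fabp7, Slc1a2, Slc1a3, Glul, Aqp4, Gja1 and Aldoc. They were found on the arrays as every probe set (a group of short probes designed against the same transcript) whose platform annotation gives a single symbol and that symbol is 1 of the 10. This gave 32 probe sets of the 45037 tested. Fabp7 had 1 probe set, S100b, Aldh1l1, Glul and Aldoc had 2 each, Gfap and Aqp4 had 3, Slc1a2 had 5, and Slc1a3 and Gja1 had 6. A further probe set that lists Slc1a2 among several symbols was left out.

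Astrocytes take up glutamate released at synapses through the transporters encoded by Slc1a2 and Slc1a3 and turn it into glutamine with the enzyme encoded by Glul. They move water through aquaporin-4 at their endfeet on blood vessels and are joined to each other by gap junctions of connexin-43. Their intermediate filament protein, encoded by Gfap, is plentiful in hippocampal and white matter astrocytes and scarcer in many of the protoplasmic astrocytes of other grey matter, and it rises when astrocytes react to injury.

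The arrays hold total RNA of amygdala and hippocampus from male mice of 2 selected lines, line 24 with low freezing and line 25 with high freezing, freezing being the motionless posture scored after contextual fear conditioning. The 24 Affymetrix arrays make 4 groups of 6, with array numbers 1 to 6 for the low line and 7 to 12 for the high line in each tissue. No transgene or drug is named, the sources used here do not give strain background or age, and nothing says whether each array holds 1 animal, so p-values measure the spread between these samples. Each line is a single line, so selection and chance divergence cannot be told apart. Signals are given as log2(signal + 16), with SD, and the number of arrays limits the precision.

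Array medians lay between 43.3 and 55.7 in linear signal. The tissue labels were borne out by 4 of 4 hippocampus markers, all higher in hippocampus, and 3 of 3 amygdala markers, all higher in amygdala. The 18S ribosomal probe set at the 5′ end read 295 to 1525 in amygdala and 3600 to 7093 in hippocampus. Group means of the Gapdh 5′ to 3′ signal ratio were 1.33 (low line) and 1.24 (high line) in amygdala, and 1.40 and 1.41 in hippocampus. Tissue and RNA preparation therefore cannot be told apart in any tissue difference given here. Amygdala arrays 7 and 8 of the high line stood apart, with actin 5′ to 3′ signal ratios of 0.301 and 0.339 where the other 10 amygdala arrays read 0.497 to 0.63; results that rest on them are given with and without them. The tissue was bulk, so fewer astrocytes and less RNA per astrocyte cannot be told apart.

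The first question was how the astrocyte transcripts differ between the tissues. Amygdala was compared with hippocampus over all 24 arrays with limma, the lines weighted equally, and calls were made where the Benjamini-Hochberg adjusted p over the whole array was under 0.05. Of the 32 probe sets, 20 were called: 16 were higher in hippocampus and 4 were higher in amygdala. The background was high, since 25.8% of all probe sets were called, 12.9% in each direction. It was higher still among brighter probe sets. With the weakest 40% left out, 11482 of 27022 passed, 6024 on the amygdala side and 5458 on the other. Most of the 32 are brighter than those left out, so 25.8% understates their background. The 4 on the amygdala side were not above it, and the excess on the hippocampus side is smaller than 12.9% implies. Other shares of all probe sets given below include weak ones too. The hippocampus side held all 3 Gfap and all 3 Aqp4 probe sets, both of Glul, 4 of 5 of Slc1a2 and 4 of 6 of Gja1. The amygdala side held Fabp7, 1 of 2 probe sets of Aldh1l1 and 2 of 6 of Slc1a3, while neither probe set of Aldoc or S100b was called. The median difference over the 32 probe sets was -0.26 against -0.021 over all probe sets, amygdala minus hippocampus. On 6 of the 32 the arrays of the tissues did not overlap at all, 2 each for Gfap, Aqp4 and Gja1 and every one higher in hippocampus, where 4.91% of all probe sets separated and 2.44% did so in that direction.

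**Figure D1:**
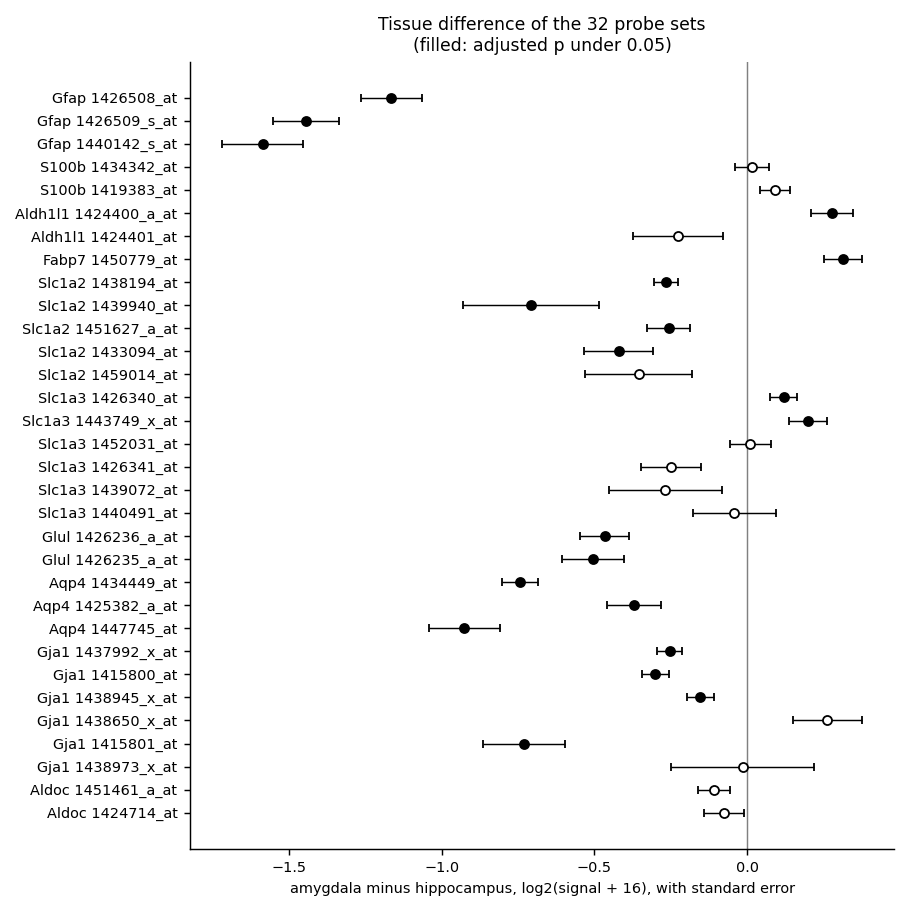
Difference between tissues (amygdala minus hippocampus, log2 scale) of each of the 32 probe sets with its standard error from the limma fit; filled points passed an adjusted p of 0.05 and open points did not. The 3 Gfap probe sets lie farthest to the left, between -1.59 and -1.16, and Fabp7 lies farthest to the right at 0.31.

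The sequence before the transcription start is shown for genes on both sides of this split, Gfap, Glul and Slc1a2 (higher in hippocampus) and Fabp7 and Slc1a3 (called probe sets higher in amygdala), so that the letters shared or not shared by members that differ together can be seen. Each is the 250 bases before the start from RefSeq on GRCm38.p6, 5′ to 3′ on the gene's strand. Capitals mark matches, on either strand, to 3 motifs of factors known in astrocyte development and reactivity: TTGGC (a nuclear factor I half-site, which reads GCCAA on the other strand), TGGGAA (the core bound by RBPJ, the Notch effector, or TTCCCA) and TTCNNNGAA (a STAT site).
Gfap, chr11:102897201-102897450, minus strand: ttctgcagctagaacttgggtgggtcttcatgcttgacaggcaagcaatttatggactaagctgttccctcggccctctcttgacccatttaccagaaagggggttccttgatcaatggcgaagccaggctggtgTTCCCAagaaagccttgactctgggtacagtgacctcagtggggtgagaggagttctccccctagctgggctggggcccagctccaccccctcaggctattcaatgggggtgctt
Glul, chr1:153899679-153899928, plus strand: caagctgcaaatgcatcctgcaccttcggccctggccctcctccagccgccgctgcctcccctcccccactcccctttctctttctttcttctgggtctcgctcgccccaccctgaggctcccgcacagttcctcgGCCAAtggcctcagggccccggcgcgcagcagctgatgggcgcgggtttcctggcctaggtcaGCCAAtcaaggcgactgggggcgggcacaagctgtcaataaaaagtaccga
Slc1a2, chr2:102706188-102706437, plus strand: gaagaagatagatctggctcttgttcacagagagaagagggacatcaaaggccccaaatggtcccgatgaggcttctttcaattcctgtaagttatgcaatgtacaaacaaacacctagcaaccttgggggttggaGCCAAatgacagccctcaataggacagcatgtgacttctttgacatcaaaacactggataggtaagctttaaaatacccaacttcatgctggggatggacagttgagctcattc
Fabp7, chr10:57784673-57784922, plus strand: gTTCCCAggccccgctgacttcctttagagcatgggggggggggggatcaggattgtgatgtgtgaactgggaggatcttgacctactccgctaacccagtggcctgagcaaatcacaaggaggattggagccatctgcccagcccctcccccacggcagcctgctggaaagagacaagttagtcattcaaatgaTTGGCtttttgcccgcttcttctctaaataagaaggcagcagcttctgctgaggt
Slc1a3, chr15:8710808-8711057, minus strand: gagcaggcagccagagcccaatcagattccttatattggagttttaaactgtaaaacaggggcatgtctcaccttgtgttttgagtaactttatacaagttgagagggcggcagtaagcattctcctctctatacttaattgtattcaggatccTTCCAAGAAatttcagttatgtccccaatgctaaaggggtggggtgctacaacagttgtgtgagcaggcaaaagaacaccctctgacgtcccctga
Windows of 9 of the 10 genes were searched, with that of Aqp4 left out. They were 10 in all because Aldoc has 2 starts. TTGGC was found in 5 of the 9 genes, against 41.5% of 32851 promoter windows of the same length. TGGGAA was found in 5 of 9 against 21.6%, and TTCNNNGAA in 2 of 9 against 7.02%. The counts are by gene and the shares by window, so they are not on the same footing. For Aldoc, TTGGC and TTCNNNGAA were each found at only 1 of its 2 starts. Among the genes printed, Glul has 2 TTGGC matches, Slc1a2 and Fabp7 have 1 each, Gfap and Fabp7 have 1 TGGGAA match each, and Slc1a3 has 1 TTCNNNGAA match. No motif separates the printed genes that were higher in hippocampus from those higher in amygdala. A match is only a match of letters.

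Gfap, the intermediate filament of astrocytes, showed the widest tissue difference of the 10 genes. On probe set 1426508_at the amygdala arrays ran from 7.31 to 8.19 (median 7.55) in the low line and from 7.72 to 8.24 (median 7.83) in the high line. The hippocampus arrays ran from 8.37 to 9.22 (median 8.86) in the low line and from 8.70 to 9.12 (median 9.00) in the high line. Every hippocampus array was above every amygdala array. The means were 7.74 ± 0.29 in amygdala and 8.91 ± 0.23 in hippocampus (SD, n = 12 each), a 2.24-fold difference (log2 difference -1.16, SE 0.10, adjusted p = 2.68e-09).

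The other Gfap probe sets gave larger differences in the same direction. On 1426509_s_at the medians were 6.82 and 7.00 in amygdala of the low and high lines and 8.28 and 8.59 in hippocampus, with ranges of 6.57 to 7.69 over amygdala and 8.18 to 8.77 over hippocampus. The tissues did not overlap, and hippocampus was 2.72-fold higher (adjusted p = 2.24e-10). On 1440142_s_at hippocampus was 3.00-fold higher (adjusted p = 1.56e-09), with 1 low line hippocampus array, number 2, at 6.96, below amygdala array 10 of the high line at 7.19. Without amygdala arrays 7 and 8 the 3 differences were -1.17, -1.49 and -1.61. Within each line the differences were -1.24, -1.40 and -1.58 in the low line and -1.09, -1.49 and -1.59 in the high line.

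**Figure D2:**
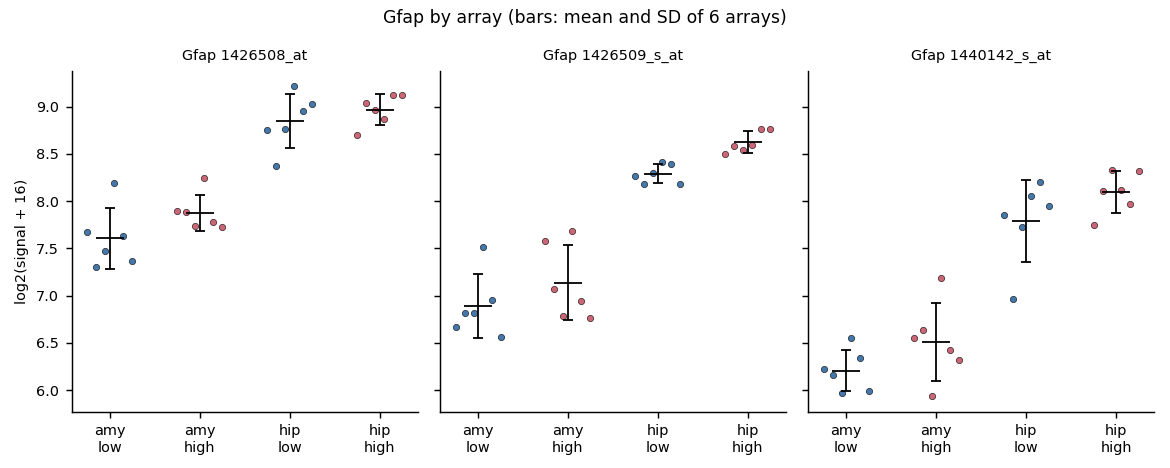
Signal of the 3 Gfap probe sets on each array as log2(signal + 16), in amygdala (amy) and hippocampus (hip) of the low and high freezing lines; points are arrays, and bars are the mean and SD of 6 arrays. Hippocampus lies above amygdala in both lines, and on 1426509_s_at the 6 high line hippocampus arrays (8.50 to 8.77) lie above the 6 low line ones (8.18 to 8.42).

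S100b, a calcium-binding protein of astrocytes and some oligodendrocytes, was not called between the tissues on either probe set. On 1434342_at the medians of the 4 groups lay between 9.07 and 9.22, and the lowest and highest of the 24 arrays were 8.85 and 9.29. The tissue difference there was 0.016 (SE 0.056, adjusted p = 0.87). On 1419383_at it was 0.091 (SE 0.049, adjusted p = 0.189), with amygdala at 8.75 ± 0.09 and hippocampus at 8.66 ± 0.14 (SD, n = 12 each).

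Aldh1l1, the folate enzyme widely used as a pan-astrocyte marker, was higher in amygdala on its brighter probe set. On 1424400_a_at the amygdala arrays ran from 7.97 to 8.16 (median 8.05) in the low line and 7.81 to 8.30 (median 8.09) in the high line. The hippocampus arrays ran from 7.58 to 8.07 (median 7.76) and from 7.61 to 8.00 (median 7.78). The tissues overlapped, and the difference was 1.21-fold (log2 0.28, SE 0.07, adjusted p = 0.00321), or 0.23 (adjusted p = 0.0158) without amygdala arrays 7 and 8, which were the 2 highest arrays. The second probe set, 1424401_at, was weak, with linear signals from 1.5 to 32.6, and gave -0.23 (SE 0.15, adjusted p = 0.29).

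Fabp7, the brain fatty acid binding protein of radial glia and astrocytes, was also higher in amygdala, on its single probe set. The amygdala arrays ran from 9.79 to 10.23 (median 10.18) in the low line and 10.07 to 10.47 (median 10.31) in the high line. The hippocampus arrays ran from 9.77 to 9.96 (median 9.88) and from 9.72 to 10.16 (median 9.83). The ranges overlapped through 1 low line amygdala array, number 6, at 9.79, and 1 high line hippocampus array, number 12, at 10.16. The other 11 amygdala arrays lay above the other 11 hippocampus arrays, if narrowly, at 10.02 or more against 10.01 or less. Amygdala was 1.24-fold higher (10.19 ± 0.18 against 9.88 ± 0.12, SE of the difference 0.06, adjusted p = 5.21e-04), and the difference was 0.34 without arrays 7 and 8.

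**Figure D3:**
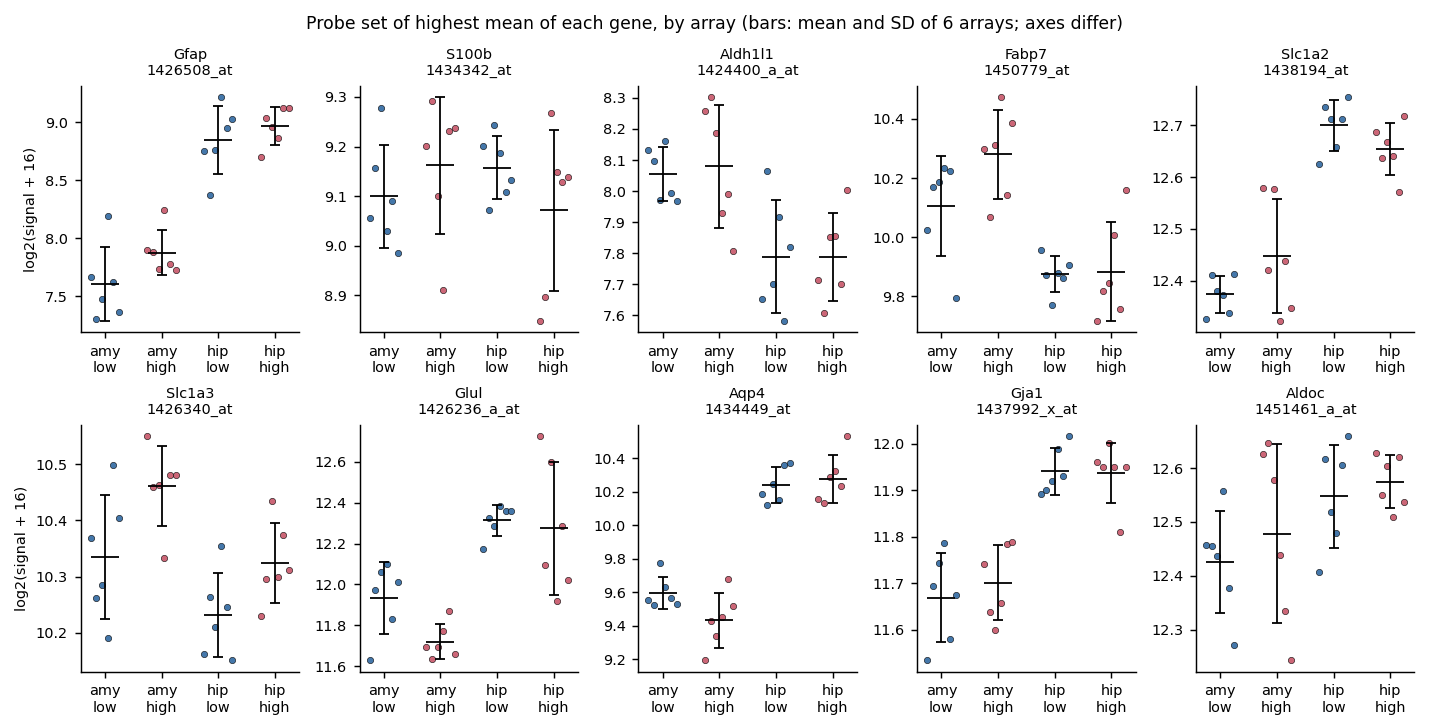
The probe set of highest mean of each of the 10 genes on every array, as log2(signal + 16), in amygdala (amy) and hippocampus (hip) of the low and high lines; points are arrays, bars are the mean and SD of 6 arrays, and each panel has its own axis. Gfap, Slc1a2, Glul, Aqp4 and Gja1 are higher in hippocampus, Fabp7 and Aldh1l1 are higher in amygdala, and S100b and Aldoc were not called. Slc1a3 was called higher in amygdala only narrowly (limma adjusted p = 0.0483). That call was lost under several alternatives, and the probe sets of Slc1a3 differed in direction.

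Both glial glutamate transporters were detected on several probe sets, and their called tissue differences ran in opposite directions. Slc1a2, which encodes GLT-1, the main glutamate transporter of the forebrain, read 12.32 to 12.58 in amygdala and 12.57 to 12.75 in hippocampus on its brightest probe set, 1438194_at. The group medians there were 12.38 (low) and 12.43 (high) in amygdala and 12.71 (low) and 12.65 (high) in hippocampus. Only 2 amygdala arrays, 7 and 9 of the high line, reached the level of the lowest hippocampus array. Hippocampus was 1.20-fold higher (12.68 ± 0.05 against 12.41 ± 0.09, SD, n = 12 each, adjusted p = 1.59e-05).

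Of the other Slc1a2 probe sets, 1451627_a_at gave -0.26 (adjusted p = 0.00685), 1433094_at -0.42 (adjusted p = 0.0064) and 1439940_at -0.71 (SE 0.22, adjusted p = 0.0207), all higher in hippocampus. The call on 1439940_at was lost without amygdala arrays 7 and 8 (-0.54, adjusted p = 0.0565), and array 8 was its lowest array at 7.97. The weakest, 1459014_at, with linear signals from 1.7 to 47.2, gave -0.36 (adjusted p = 0.149) and -0.14 without those arrays.

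Slc1a3, which encodes GLAST, the glutamate transporter first expressed in radial glia, was called in amygdala on 2 of 6 probe sets. On 1426340_at the arrays ran from 10.19 to 10.55 in amygdala (medians 10.33 low, 10.47 high) and from 10.15 to 10.43 in hippocampus (medians 10.23 low, 10.31 high). The tissues overlapped widely and the difference was 1.09-fold (log2 0.12, SE 0.04, adjusted p = 0.0483). That call was lost without arrays 7 and 8 (0.11, adjusted p = 0.105), after median centring (0.13, adjusted p = 0.0934) and on leaving out any of 18 of the 24 arrays; it was kept only without amygdala arrays 2, 3, 4 or 10 or hippocampus arrays 4 of the low line or 9 of the high line. On 1443749_x_at amygdala was 1.15-fold higher (log2 0.20, adjusted p = 0.0181), or 0.15 (adjusted p = 0.0734) without arrays 7 and 8. The other 4 probe sets lay between -0.27 and 0.010 and were not called. Of these, 1426341_at (-0.25, higher in hippocampus) passed with a pseudocount of 64 (limma adjusted p = 0.0448), without the weakest 40% of probe sets (0.0397) and with an intensity trend (0.0313). Thus the direction for Slc1a3 differed between its own probe sets, with 3 positive and 3 negative.

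Glul, glutamine synthetase, was higher in hippocampus on both probe sets. On 1426236_a_at the amygdala arrays ran from 11.63 to 12.10 (median 11.99) in the low line and 11.63 to 11.87 (median 11.69) in the high line. The hippocampus arrays ran from 12.17 to 12.38 (median 12.34) and from 11.92 to 12.72 (median 12.19). Within each line the arrays of the tissues did not overlap. High line hippocampus arrays 10 at 11.92, 12 at 12.02 and 8 at 12.095 lay among the amygdala arrays of the low line. Hippocampus was 1.38-fold higher (12.29 ± 0.23 against 11.83 ± 0.17, SD, n = 12 each, adjusted p = 8.52e-05). On 1426235_a_at it was 1.42-fold higher (adjusted p = 5.40e-04). Without arrays 7 and 8 the differences were -0.45 and -0.44.

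Further genes of the glutamate and glutamine cycle were taken from a list of 12, of which 10 were measured with a named probe set. Of these, 4 were higher in hippocampus and 1 in amygdala (1 probe set a gene, that of highest mean), where 30.1% of 18193 named genes were called on the same footing, 13.1% higher in hippocampus and 17.0% higher in amygdala. Slc1a1, the neuronal glutamate transporter, was higher in hippocampus by 0.51 (adjusted p = 8.97e-09), the glutamine transporter Slc38a2 by 0.43 (adjusted p = 6.25e-08) and the vesicular transporter Slc17a7 by 0.63 (adjusted p = 7.29e-07). Slc17a6, the vesicular transporter of many subcortical glutamatergic neurons, was higher in amygdala by 1.40 (adjusted p = 1.98e-07). The list's median difference was -0.13, against 0.0051 over all named genes.

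Aqp4, the water channel of astrocyte endfeet, was higher in hippocampus on all 3 probe sets. On 1434449_at the amygdala arrays ran from 9.52 to 9.77 (median 9.56) in the low line and 9.19 to 9.68 (median 9.44) in the high line. The hippocampus arrays ran from 10.12 to 10.37 (median 10.22) and from 10.13 to 10.53 (median 10.26). A gap separated the tissues in both lines, and hippocampus was 1.67-fold higher (10.26 ± 0.12 against 9.51 ± 0.15, SD, n = 12 each, adjusted p = 5.43e-10). The tissues were also apart on 1447745_at, where hippocampus was 1.90-fold higher (adjusted p = 1.08e-06), and overlapped on 1425382_a_at, where it was 1.29-fold higher (adjusted p = 0.0028). Without arrays 7 and 8 the 3 differences were -0.71, -0.79 and -0.29.

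Gja1, connexin-43, was higher in hippocampus on 4 of 6 probe sets. On the brightest, 1437992_x_at, amygdala ran from 11.53 to 11.79 (medians 11.68 low, 11.70 high) and hippocampus from 11.81 to 12.02 (medians 11.93 low, 11.95 high). The tissues did not overlap, though the gap was narrow, and the difference was 1.19-fold (log2 -0.25, SE 0.04, adjusted p = 5.12e-05). They were also apart on 1415800_at, at 1.23-fold (adjusted p = 9.97e-06). The larger difference on 1415801_at, 1.66-fold (adjusted p = 1.78e-04), was -0.73 on the log2 scale with all arrays and -0.56 without arrays 7 and 8, which were its 2 lowest at 7.15 and 7.96. The fourth, 1438945_x_at, gave -0.15 (adjusted p = 0.0132) and was not called after median centring of each array (-0.14, adjusted p = 0.0635).

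The other Gja1 probe sets went another way. On 1438650_x_at amygdala was nominally higher by 0.26 (SE 0.11, adjusted p = 0.0924), and 1438973_x_at, whose arrays scattered from 5.73 to 7.70, gave -0.014 (SE 0.23, adjusted p = 0.975). The first of these passed with an intensity trend in the fit (0.26, limma adjusted p = 0.0495) and without high line amygdala array 10 (0.32, adjusted p = 0.0222), opposite in direction to the 4 calls above. Probe sets whose names end in _x_at hold probes that may also bind other transcripts, so they may not read their gene alone. That applies to 4 of the 6 Gja1 probe sets, with 1437992_x_at and 1438945_x_at among those called higher in hippocampus, and to Slc1a3 1443749_x_at.

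Aldoc, the glycolytic aldolase of brain, was not called on either probe set. On 1451461_a_at the amygdala arrays ran from 12.27 to 12.56 (median 12.45) in the low line and 12.24 to 12.65 (median 12.51) in the high line. The hippocampus arrays ran from 12.41 to 12.66 (median 12.56) and from 12.51 to 12.63 (median 12.58). The ranges overlapped over most of their length. The difference was -0.11 (SE 0.05, adjusted p = 0.131), or -0.15 (adjusted p = 0.0358) without arrays 7 and 8, and it was -0.076 (SE 0.066, adjusted p = 0.443) on 1424714_at.

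Further astrocyte genes, 44 in 4 lists by role, of which 43 were measured, also held calls in both directions. These lists were chosen with earlier results of these data known, so their counts are not independent support for the members' differences. Over the 4 lists, 22 of 43 were higher in hippocampus and 4 in amygdala, where 13.1% and 17.0% of all named genes were called in those directions. Their median difference was -0.17 against 0.0051 over all named genes. Among genes of metabolism and transport 9 of 15 were higher in hippocampus and 1 in amygdala. They were led by Aldh1a1, a retinoic acid synthesising enzyme, at -1.21 (adjusted p = 2.22e-11), the metallothioneins Mt2 at -0.72 (adjusted p = 1.13e-09) and Mt1 at -0.55 (adjusted p = 9.31e-09), and the phospholipase Pla2g7 at -0.48 (adjusted p = 7.97e-09). Among secreted and surface proteins 7 of 12 were higher in hippocampus, such as the protease Htra1 at -0.60 (adjusted p = 3.78e-09), and 1, Mfge8, in amygdala at 0.33 (adjusted p = 5.53e-05).

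Transcription and signalling genes were divided. Of 10, 4 were higher in hippocampus, with Nfia, the nuclear factor I member that starts astrocyte formation, at -0.76 (adjusted p = 2.40e-10) and Id3 at -0.34 (adjusted p = 2.38e-04). The 2 higher in amygdala were Sox2, a factor of neural stem cells and astrocytes, at 0.32 (adjusted p = 1.04e-04) and the receptor Fgfr3 at 0.37 (adjusted p = 2.31e-04). For ion and water handling 2 of 6 were higher in hippocampus and none in amygdala, namely Gjb6, connexin-30, at -0.36 (adjusted p = 0.00172) and the bicarbonate transporter Slc4a4 at -0.20 (adjusted p = 0.0017). Of 11 measured genes known from reactive astrocytes, 4 were higher in hippocampus and none in amygdala, beside 13.1% and 17.0% of all named genes, with a median of -0.30. The 4 were Serpina3n at -1.61 (adjusted p = 9.11e-06), Serping1 at -0.69 (adjusted p = 1.66e-06), the filament gene Vim at -0.64 (adjusted p = 4.20e-07) and Cd44 at -0.33 (adjusted p = 0.00272).

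Markers of other cell types were read on the same footing, with 13.1% of all named genes called higher in hippocampus and 17.0% in amygdala. Of 5 oligodendrocyte markers 4 were higher in hippocampus, and their mean level ran from 9.73 to 10.03 over amygdala arrays and 10.01 to 10.64 over hippocampus arrays. Meningeal markers were higher in hippocampus for 3 of 4 genes, with a mean of 6.32 to 6.96 in amygdala and 7.29 to 7.75 in hippocampus. Neuronal markers were higher in hippocampus for 4 of 5 and in amygdala for 1. In the other direction, 2 of 6 microglial markers and 1 of 2 markers of oligodendrocyte precursors were higher in amygdala, and none of 4 endothelial markers was called. Of 3 immature neuron markers 2 were higher in amygdala and 1 in hippocampus, and 1 of 4 choroid plexus and ependyma markers was higher in hippocampus. Of 3 striatum markers 1 was measured, and it was higher in amygdala. It read 8.52 to 9.48 over amygdala arrays and 6.17 to 6.69 over hippocampus arrays. In lists this short a count of 1 or 2 does not show that a cell type differed. The part of these cells in the astrocyte differences was not tested.

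The second question, named by the title of the series, was whether selection for fear conditioning was accompanied by differences between the lines. In hippocampus none of the 32 astrocyte probe sets was called by limma with the 12 arrays of that tissue, against 0.0222% (10) of all probe sets. At an unadjusted p under 0.05 there were 2 of 32, where 8.97% of all probe sets passed. In amygdala none of the 32 was called against 0.00222% (1) of all, and 2 of 32 passed the unadjusted limit against 6.54% of all. A line effect that differed between tissues was called for none of the 32 and for 0.0% of all, with 0 and 7.08% at the unadjusted limit. The median of the 32 high minus low differences was 0.0043 in hippocampus and 0.025 in amygdala, against 0.024 and -0.0065 over all probe sets.

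**Figure D4:**
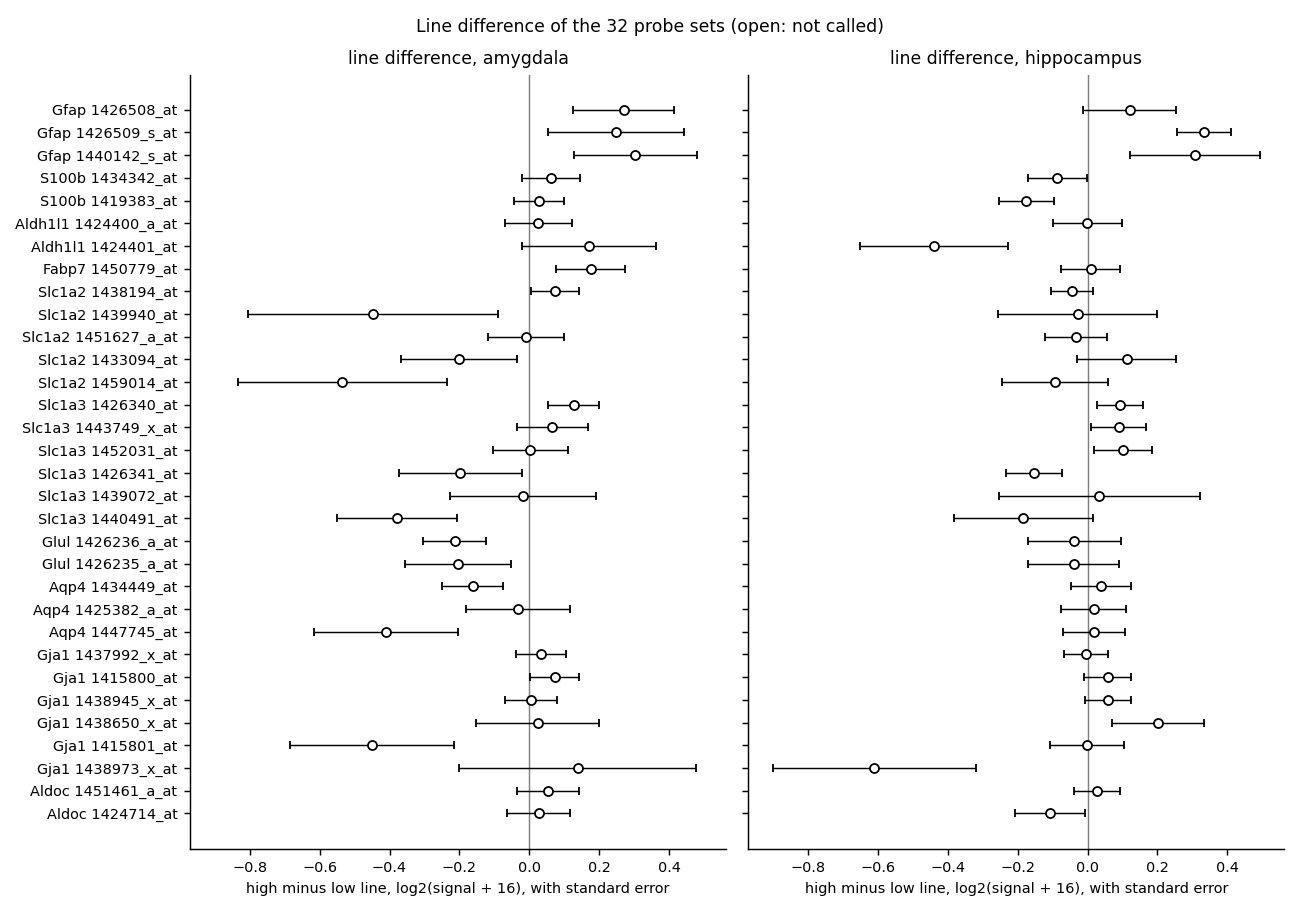
High minus low line difference (log2 scale) with its standard error for the 32 probe sets, in amygdala (left) and hippocampus (right); open points did not pass an adjusted p of 0.05, and none did. The 3 Gfap probe sets lie to the right of 0 in both panels, between 0.12 and 0.33.

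Gfap gave the lowest unadjusted p of the 32 between the lines. On 1426509_s_at the low line hippocampus arrays ran from 8.18 to 8.42 and the high line arrays from 8.50 to 8.77, so the lines did not overlap, as on 0.637% of all probe sets. The means were 8.29 ± 0.10 and 8.62 ± 0.11 (SD, n = 6 each), 1.26-fold higher in the high line by limma (log2 0.33, SE 0.08, unadjusted p = 8.73e-04, adjusted p = 0.239), which did not pass. The other probe sets gave 0.12 (SE 0.13, adjusted p = 0.831) and 0.31 (SE 0.19, adjusted p = 0.67) with overlapping lines. Over the alternative settings the adjusted p of 1426509_s_at ran from 0.0509 to 0.485.

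In amygdala the Gfap differences were 0.27 (SE 0.15), 0.25 (SE 0.20) and 0.30 (SE 0.18), with adjusted p of 0.795, 0.861 and 0.805, and 0.26, 0.16 and 0.26 without arrays 7 and 8. The lines overlapped on each of the 3. The low line array 4 and the high line array 10 were the highest of their groups on all 3 probe sets, at 8.19 and 8.24 on 1426508_at. Ordered by group mean, Gfap was lowest in amygdala of the low line, then amygdala of the high line, then hippocampus of the low line, and highest in hippocampus of the high line on each probe set, but only the step between tissues passed its test. The line effect on the 3 probe sets differed between tissues by 0.15, -0.087 and -0.0043, and none was called.

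The remaining members at an unadjusted p under 0.05 were few. S100b on 1419383_at read lower in the high line in hippocampus, at 8.57 ± 0.12 against 8.75 ± 0.10 (SD, n = 6 each; log2 -0.18, SE 0.08, adjusted p = 0.549). Glul on 1426236_a_at read lower in the high line in amygdala, at 11.72 ± 0.09 against 11.93 ± 0.18 (log2 -0.21, SE 0.09, adjusted p = 0.744), and -0.19 without arrays 7 and 8. The weak Slc1a3 probe set 1440491_at gave -0.38 in amygdala (SE 0.17, adjusted p = 0.762) and -0.22 without them. The groups overlapped in each case, and no other probe set of these 3 genes passed the unadjusted limit in that tissue.

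Amygdala arrays 7 and 8 bore on several of the other amygdala line values. Both lay below the other 4 high line arrays on 7 of the 32 probe sets and below all 10 other amygdala arrays on 5: Aqp4 1447745_at, Gja1 1415801_at, Glul 1426235_a_at, Slc1a2 1459014_at and Slc1a3 1426341_at. On Gja1 1415801_at they read 7.15 and 7.96 where high line arrays 9 to 12 read 8.32 to 8.69, and on Aqp4 1447745_at they read 5.76 and 5.84 against 6.37 to 6.73. The 2 probe sets on which they lay below the high line arrays alone were Aqp4 1425382_a_at, at 8.46 and 8.79 against 9.01 to 9.27, and Slc1a2 1433094_at. Probe sets of 1 gene differed in this, for on Gja1 1437992_x_at the values were 11.74 and 11.64 among others of 11.60 to 11.79. The pair was not low throughout. Both arrays lay above all 10 other amygdala arrays on Aldh1l1 1424400_a_at, Aldoc 1451461_a_at and Slc1a3 1443749_x_at. On the last they read 10.58 and 10.56 where high line arrays 9 to 12 read 10.11 to 10.50. How often the pair lay apart over all probe sets was not counted. Without the pair the line difference moved from -0.45 to -0.11 on Gja1 1415801_at, from -0.41 to -0.14 on Aqp4 1447745_at, from -0.54 to -0.10 on Slc1a2 1459014_at and from -0.20 to 0.075 on Slc1a3 1426341_at. These probe sets and the low actin 5′ to 3′ ratio fall on the same arrays, and the part of RNA quality in them was not tested.

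**Figure D5:**
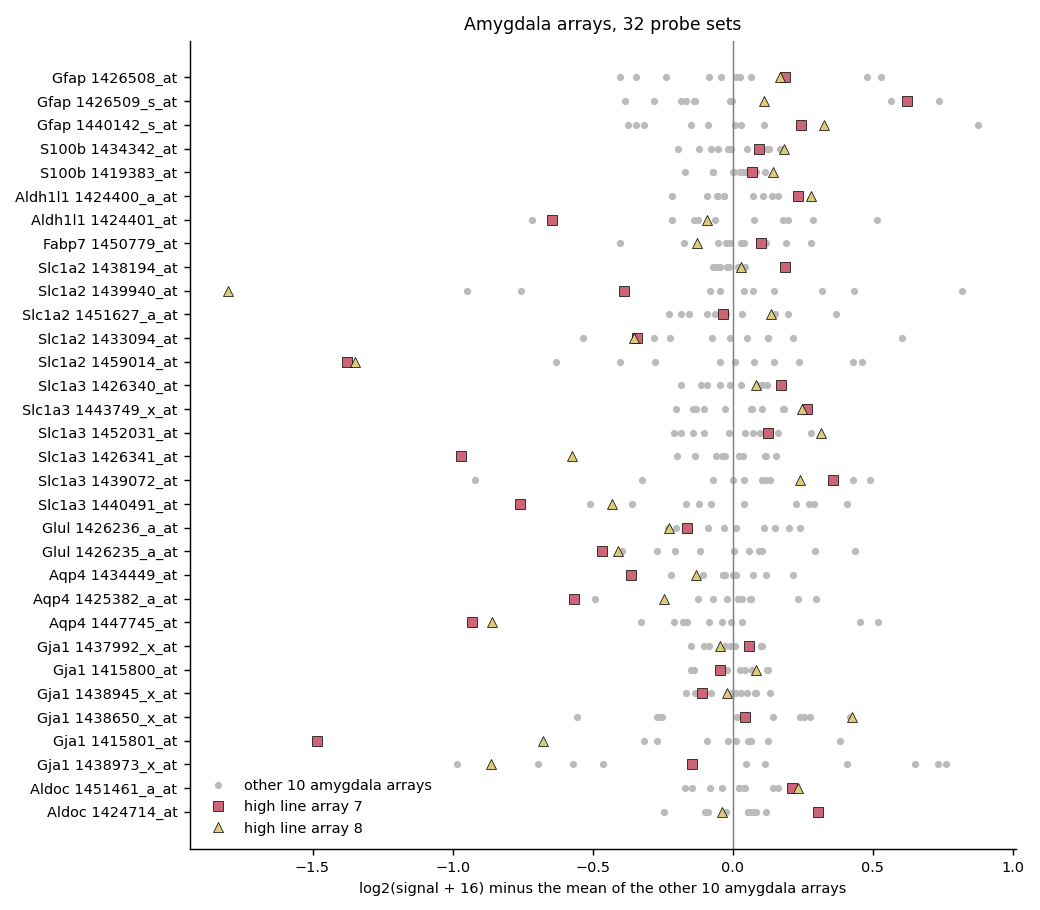
Each amygdala array's value minus the mean of the 10 amygdala arrays other than 7 and 8 (log2 scale), for the 32 probe sets; squares are high line array 7, triangles array 8 and grey points the others. Arrays 7 and 8 lie below all others on 5 probe sets, and lie among or above them on the 3 Gfap probe sets.

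None of the 43 further astrocyte genes, the 11 reactive genes or the 10 of the glutamate cycle was called between the lines in either tissue, where 3 of 18193 named genes were called in hippocampus (0.0165%) and 0 in amygdala (0.0%) by limma. At an unadjusted p under 0.05 there were 4 of the 43, 3 of the 11 and 0 of the 10 in hippocampus, and 2, 0 and 0 in amygdala. Of all 18193 named genes, 1581 passed that limit in hippocampus and 1024 in amygdala. In hippocampus 10 of the 11 reactive genes had positive differences, with a median of 0.12, where 10005 of the 18193 named genes were positive with a median of 0.019. They were led by Cd44 at 0.38 (SE 0.10, adjusted p = 0.307) and Vim at 0.26 (SE 0.09, adjusted p = 0.453). Meningeal markers read higher in the high line there too, positive for 3 of 4 genes with a median of 0.17 and none called, and their mean level ran from 7.29 to 7.62 in the low line and 7.55 to 7.75 in the high line. Microglial markers were positive for 5 of 6 (median 0.081) and neuronal markers for 0 of 5 (median -0.042). Endothelial markers were positive for 1 of 4 (median -0.25) and oligodendrocyte markers for 1 of 5 (-0.028). Positive too were 3 of 4 choroid plexus and ependyma markers (0.15), 2 of 2 of oligodendrocyte precursors (0.13) and 2 of 3 of immature neurons (0.017). The part of these cell types in the reactive gene values was not tested. In amygdala 5 of the 11 reactive genes were positive and the median was -0.075. Gjb6 gave 0.25 in hippocampus and 0.27 in amygdala, with adjusted p of 0.538 and 0.762.

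The members were then compared array by array, with the line means removed and the tissues kept apart, over 12 arrays and 1 probe set a gene (that of highest mean). Of 45 pairs in each tissue, 90 in all, 1 passed a permutation test adjusted over the 90. This was Aldh1l1 with Aldoc in amygdala, with a Pearson r of 0.92 (two-sided permutation p = 3.6e-04, adjusted 0.0324) and a Spearman rho of 0.94 (adjusted p = 0.0225). Leaving out the 2 arrays farthest from the median of Aldh1l1 gave r = 0.85. Without arrays 7 and 8, which were the highest on both genes, r was 0.86 over 10 arrays and no longer passed (permutation, adjusted p = 0.288). The next pair, Gja1 with Glul in amygdala, had r = 0.75 (rho 0.71) and did not pass (permutation, adjusted p = 0.225).

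Beyond the pair that passed, no covariation was shown, and with 12 arrays a weaker one could be missed. The median r was 0.037 in amygdala, from -0.55 to 0.92, and 0.19 in hippocampus, from -0.66 to 0.68. It depended on the scaling, since centring each array on its median raised it to 0.15 and 0.50. The non-member genes whose arrays followed the mean of the 10 members most closely were, over 12 arrays in hippocampus, Lpar1 (r = 0.91), Qdpr (0.86), Ermn (0.84), Ptn (0.84) and Cd9 (0.83) of 4892 genes compared. In amygdala they were Bcan (0.87), Golga2 (0.86), Reln (0.84), Eif3a (0.81) and Camk2n2 (0.79) of 5016. These are the highest of many values from arrays that share their scaling, and are given as a description. They depend in part on few arrays, for without the 2 arrays farthest from the median the amygdala values ran from 0.38 (Eif3a) to 0.88 (Camk2n2) and the hippocampus values from 0.78 (Ermn) to 0.86 (Lpar1).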

How the data were processed

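The authors deposited linear intensities, 1 per probe set and array. The sources used here do not give the signal algorithm, software, genome build or tissue handling. In the deposited values each array's mean without the highest and lowest 2% of probe sets is 150.0. After removal of 64 controls from 45101 probe sets, 45037 were tested as log2(intensity + 16), a scale that understates changes of weak probe sets; no filter on low values was used. Genes were named from the platform annotation, where 34945 probe sets carry 1 symbol.

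Each sample's description gave its group and its title the array number. Differences were fitted with limma 3.58.1 (lmFit and eBayes, R 4.3.3) and adjusted by Benjamini-Hochberg over all probe sets: line differences within the 12 arrays of a tissue, tissue differences and the difference of line effects as contrasts of the 4 group means over 24 arrays. Covariation used 100000 permutations within lines, with deviations from the line means (Python 3.11.15, numpy 2.4.6, scipy 1.17.1). All probe sets of the members are reported. From the further lists up to 4 called genes per list and comparison are named by lowest p, or up to 2 as values where none was called, each by its probe set of highest mean. The 5 genes most like the members' mean were taken among non-members with a mean log2 signal of 8 or more. The members and lists were chosen with earlier results of these data known. Promoter windows came from RefSeq (GRCm38.p6); the window of Aqp4 is not used here.

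The limma fits and the covariation test were tested on simulated arrays. The covariation test recovered every simulated pair only with the stronger shared factor, and about every other one with the weaker. Both factors were larger than the added noise and weaker sharing was not simulated, so pairs that did not pass are not shown to be unrelated. Alternatives were other pseudocounts, a filter on weak probe sets, quantile normalization, median centring, an intensity trend, a replicate block, 1 fit of all arrays for the line differences, and leaving out arrays. No value column was left unmapped.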

Additional observations from a re-analysis of the deposited data

Results flagged for a closer look

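Each group of 6 arrays was examined on each of the 32 probe sets, 128 groups in all, for a single array far from the other 5 by Dixon's gap-to-range criterion. There were 6 such arrays, and chance gives about 1 in 20 groups. In amygdala of the low line, array 6 was the lowest on S100b 1419383_at at 8.56 (the others 8.74 to 8.81), and array 4 was the lowest on Slc1a3 1439072_at at 4.68 (the others 5.71 to 6.10). In amygdala of the high line, array 10 was the highest on Gfap 1426508_at at 8.24 (the others 7.72 to 7.90). In hippocampus of the low line, array 6 was the highest on Aqp4 1425382_a_at at 9.63 (the others 9.17 to 9.33). In hippocampus of the high line, array 11 was the lowest on Gja1 1437992_x_at at 11.81 (the others 11.95 to 12.0), and array 7 was the lowest on Slc1a3 1440491_at at 4.31 (the others 5.23 to 5.50). None of the 6 falls on amygdala arrays 7 and 8, but the criterion cannot clear them. It looks for a single array, so 2 arrays that depart together hide each other. On Slc1a2 1459014_at, for example, arrays 7 and 8 read 4.14 and 4.17 where high line arrays 9 to 12 read 5.12 to 5.95, without a flag.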

How the results depend on the processing

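Of the 32 member probe sets, the 20 called between tissues became 19 to 21 on leaving out each array in turn and 18 to 22 under the other alternatives; higher in hippocampus gave 16 to 18 and 15 to 17. Higher in amygdala, 4 in the main fit, gave 2 without amygdala arrays 7 and 8; the cause was not tested. No member was called between the lines, or for the difference of line effects, under any alternative run, while over all probe sets the count in hippocampus (10) ran from 0 to 57. No pairing of the tissues by array number was detected: 2 of 12 same-number correlations passed 0.1 (-0.056 to 0.13) and 2 of 12 arrays correlated best with their own number. Samples of different tissues from the same animal could also correlate weakly, so this check cannot exclude pairing. With the replicate block 19 members were called, 3 of them higher in amygdala: neither Slc1a3 1426340_at (limma adjusted p = 0.129) nor 1443749_x_at (0.0717) passed, Gja1 1438650_x_at did (0.26, 0.0297), and no other member's call changed. The block called 10703 of all probe sets against 11615. The single covarying pair gave 0 pairs under quantile normalization, median centring and without arrays 7 and 8.

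Values that changed sign were all uncalled. Leaving out single arrays gave -0.0061 to 0.041 for S100b 1434342_at, -0.097 to 0.083 for Gja1 1438973_x_at, -0.13 to 0.0042 for Slc1a3 1440491_at and -0.017 to 0.035 for Slc1a3 1452031_at (tissue difference), and -0.20 to 0.038 for Gfap 1426509_s_at and -0.14 to 0.16 for Gfap 1440142_s_at (difference of line effects). Without amygdala arrays 7 and 8 the first 4 gave -0.0049, 0.11, 0.034 and -0.036, and Lcn2 gave 0.0037 between lines in amygdala. For the difference of line effects, Gfap 1440142_s_at gave 0.033 with a pseudocount of 1, 0.022 after quantile normalization and 0.089 after median centring, which gave 0.0057 for Gfap 1426509_s_at and 0.0052 for Cldn10. Uncalled tissue differences that passed without a single amygdala array of the high line were Slc1a3 1426341_at (-0.29 without array 11, limma adjusted p = 0.0348, or without array 12, 0.0304), Gja1 1438650_x_at (0.32 without array 10, 0.0222) and Slc1a2 1459014_at (-0.45 without array 11, 0.0442).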
